A study of Drosophila melanogaster and Drosophila yakuba and Drosophila virilis with 6 samples.

Results

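Many D. yakuba genes gave sequencing tags at more than 1 position of the same gene, and the share of tags at each of these positions was compared between eye-antennal and wing imaginal discs. A tag position was a member when its gene had at least 2 positions with at least 50 counts each, summed over the eye-antennal and the wing library. The rule took 4114 positions in 1615 genes, of 60464 D. yakuba positions and of 260616 positions in the whole series. The members were thus chosen by measured values, the summed counts, which are a property of both libraries together and are given here only as a description. Positions of any gene with 50 to 54 counts numbered 384, beside 377 with 45 to 49 counts just outside the threshold. Among the members, the lowest total was 50 counts, the median 176 and the highest 227260.

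Imaginal discs are larval epithelia that form adult structures. The eye-antennal disc gives the eye, antenna and head capsule, and the wing disc gives the wing and the notum. Both groups were D. yakuba at the wandering stage of the last larval instar, dissected by disc, with 1 library each and total RNA as the starting material. No genetic change or treatment is given for either group, and the labels do not state the strain of D. yakuba, the number of animals pooled or the clearing of attached tissue. The series also holds the same 2 discs of D. melanogaster (CantonS) and D. virilis, 6 libraries in all. Without replicates a difference between the discs has no replicate check, so no test was made and no p-value is given.

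In tag profiling, cDNA is held by its poly(A) end and cut with NlaIII, and a short tag beside the cut is sequenced. The site nearest the poly(A) end is the one expected to give the tag. A transcript that ends early gives its tag at an upstream site, and so does a transcript whose downstream site was not cut, and tag counts cannot tell these apart. Alternative poly(A) sites are common in Drosophila, where neurons use long 3′ ends for many transcripts under the control of ELAV family proteins.

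The eye-antennal library held 5673047 tags and the wing library 2200615, so the former was 2.58 times deeper. Member positions held 71.6% and 73.6% of these tags. All 4114 positions had a tag in the eye-antennal library and 4107 had one in the wing library. The discs' own markers followed the labels: eya, so, ey and toy, the retinal determination genes, summed to 1955 counts per 1000000 tags of the library (CPM) in the eye-antennal disc and 161 in the wing disc, and vg, nub, Antp and Dr to 9.87 and 241. Markers of attached tissues also differed. The fat body markers Lsp1beta, Lsp2 and Fbp1 summed to 1261 CPM in the eye-antennal disc and 13593 in the wing disc, and the ring gland markers phtm, sad and spok to 900.4 and 19.99. The brain markers did not move together: nerfin-1 stood at 17.8 and 1.82 CPM and ase at 8.81 and 1.82, whereas ple, at 7.23 and 45.4, was higher in the wing library, and their sums were 33.8 and 49.1. The muscle markers Mhc, Mlc2 and up summed to 100.5 and 62.7, and the hemocyte markers Hml and Pxn to 7.93 and 1.82, with Mhc and Pxn at 0 in both libraries. Whether these tissues contribute to the position shares was not tested, and fewer cells of a type and less RNA per cell cannot be told apart.

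Most multi-position genes had few positions. Of the 5931 genes with any qualifying position, 4316 had 1, 1091 had 2, 329 had 3 and 195 had 4 or more. The most, 10 positions, were found in CG34454 and in the gene with the identifier FBgn0086897, followed by 9 each in the ribosomal protein genes RpL3 and RpS3A. A D. melanogaster gene identifier stood beside 1522 of the 1615 genes, and 1358 of these identifiers had a symbol. The tag sequences were not analysed here, and the positions are described by coordinate alone.

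Positions of a gene were often exactly 18 bases apart. This spacing accounted for 657 of the 2499 distances between neighbouring member positions (26.3%), while the next most frequent distance, 6 bases, occurred 18 times and the median of the other distances was 423 bases. Each deposited tag interval spans 22 bases, and the recognition site of NlaIII has 4 bases and reads the same on both strands. The tags that leave a site to its left and to its right would therefore start 18 bases apart and overlap at the site. The pairs numbered 658, in 578 genes. With the gene's direction inferred from the authors' matched D. melanogaster positions and the D. melanogaster gene strand, 532 pairs could be oriented. The side that points toward the 3′ end held more tags in 402 of them (75.6%), with a median share of 82.5% (eye-antennal) and 84.4% (wing). Over pairs of at least 50 tags in all genes, the same side held more tags in 4382 of 5078 pairs in D. yakuba (86.3%) and in 3842 of 4234 in D. melanogaster (90.7%), where the strand is known from the annotation. With positions within 25 bases taken as 1 site, 284 of the 1615 genes had all their positions at 1 site, and 1331 had positions at 2 or more sites.

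**Figure D1:**
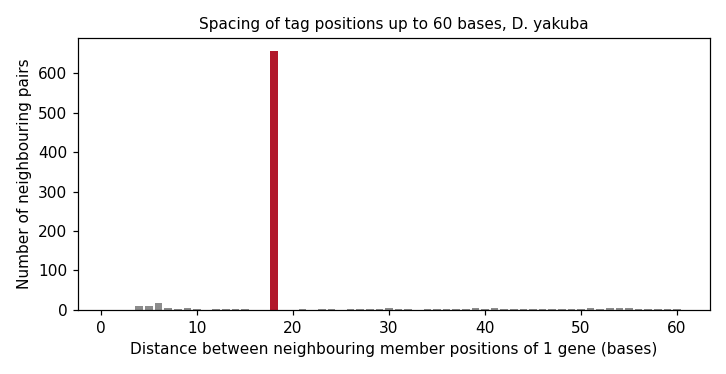
Number of neighbouring member positions of a D. yakuba gene (vertical axis) at each distance in bases up to 60 (horizontal axis). The bar at 18 bases, in red, stands at 657 and no other distance shown occurs more than 18 times.

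The same position led in both discs in most genes, and shares were close. The summed shift of a gene is the share of its tags that would have to move between positions to turn one library's distribution into the other's, in percentage points. Its median over the 1615 genes was 3.69 points, with quartiles of 1.43 and 7.86, and 90% of the genes lay at or below 13.7 points. In 1337 genes (82.8%) no position differed by 10 points or more. A gene was called when a position's share differed by at least 20 points and the exact Clopper-Pearson 95% intervals of the shares did not overlap. These intervals cover counting error only, since amplified reads without molecular identifiers are not independent molecules. The rule called 64 genes, which is 3.96% of the 1615. The position with the most tags differed between the discs in 123 genes (7.62%), and 40 of these were also called (2.48%). With positions within 25 bases summed, 56 of the 1331 genes with 2 or more sites were called (4.21%).

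**Figure D2:**
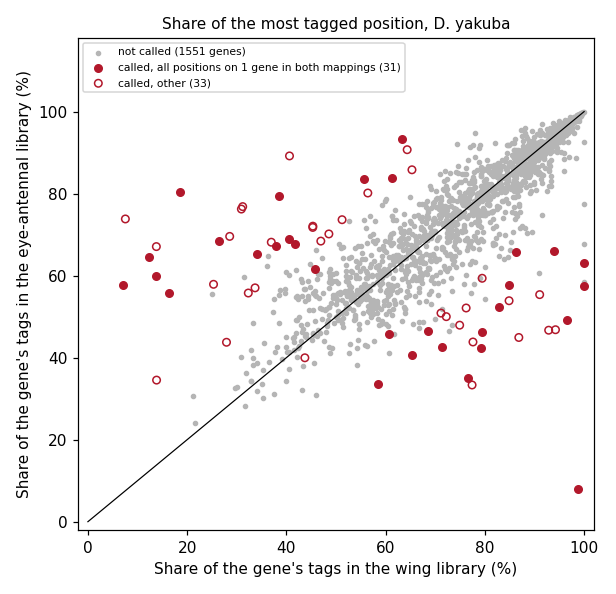
Share of a gene's tags at its most tagged position in the wing library (horizontal axis, %) and in the eye-antennal library (vertical axis, %), 1 point per D. yakuba gene. Most points lie near the diagonal line of equal shares, and the 64 called genes are in red. Filled red points are the 31 called genes whose positions all lie on the same gene in both of the authors' mappings.

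The depth behind the shares is given as a description, since the counts chose the members and counting scatter of a share is smaller at higher depth. The called genes had a median of 374 tags at member positions, against 724 for all 1615 genes, and a median of 86 tags in the wing library, against 187. Among genes with at least 2000 tags, 1 of 346 was called (0.289%), beside 24 of 694 with 500 to 2000 tags (3.46%), 30 of 444 with 200 to 500 tags (6.76%) and 9 of 131 with fewer (6.87%). The median summed shift was 1.25 points in the first of these groups and 8.29 in the last, and the share called is not read as a property of abundant genes. Called genes also spanned more sequence, with a median of 916.5 bases between their outermost positions against 442 bases in all. The share called was 4.31% for genes with 2 positions, 3.04% for 3 and 3.59% for 4 or more.

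The 6 members with the most tags had almost the same shares in both discs. Both positions of Tpc2, a pair 18 bases apart that lies on the ribosomal protein gene RpL41 in the genome mapping (a second placement of the same libraries by the authors), had 160657 and 8372 tags in the eye-antennal library and 66603 and 3086 in the wing library. The first position's share was thus 95.05% (94.9 to 95.2) in the eye-antennal and 95.6% (95.4 to 95.7) in the wing library. The summed shift was 0.525 points in Tpc2, 0.529 in the gene with the identifier FBgn0004922, 0.657 in RpL37-1, 0.308 in RpL7A, 0.0189 in RpL14 and 0.297 in eEF2, the translation elongation factor. These differences are smaller than 1 point, although the intervals did not overlap at a position of Tpc2, FBgn0004922, RpL37-1 and RpL7A.

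The largest shift was in Gnmt, which encodes glycine N-methyltransferase, an enzyme that uses S-adenosylmethionine to methylate glycine. Its upstream position, at 3R 12788649, had 7 tags from the eye-antennal and 172 from the wing disc, while the position 338 bases further downstream, at 12788987, had 82 and 2. The downstream position therefore held 92.1% of the gene's tags (84.5 to 96.8) in the eye-antennal disc and 1.15% (0.14 to 4.09) in the wing disc, a nearly complete exchange. The gene as a whole was also lower in the eye-antennal library, at 0.186 times the wing level in CPM (0.143 to 0.24). Both positions lay on Gnmt in both mappings. Coordinates are given as deposited. Their build, and whether they count from 0 or 1, is not given in the sources used here.

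In Cad88C, a gene of the cadherin family of adhesion proteins, the upstream position at 3R 15966927 had 270 tags from the eye-antennal and 5 from the wing disc, and the position 2209 bases downstream, at 15964718, had 66 and 22. Here and below, tags and shares given in pairs stand in the order eye-antennal, then wing. The order was the opposite of Gnmt: the upstream position held 80.4% (75.7 to 84.5) in the eye-antennal disc and 18.5% (6.3 to 38.1) in the wing disc. The Cad88C total was 4.78 times higher in the eye-antennal library (3.25 to 7.3), and the wing share rests on 27 tags.

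The next genes by the distance between intervals also had opposite leading positions. In CG8850 the upstream position, at 2R 8761859, had 59 tags from the eye-antennal and 109 from the wing disc, and the position 414 bases downstream, at 8762273, had 61 and 4, so that the downstream share was 50.8% (41.6 to 60.1) against 3.54% (0.973 to 8.82). Ndfip, which encodes an adaptor of Nedd4 family ubiquitin ligases, had 3 positions at equal distances of 1942 bases. The most upstream, at 3L 16413178, had 245 tags from the eye-antennal and 63 from the wing disc, the middle one, at 16415120, 40 and 67, and the last, at 16417062, 73 and 109. The most upstream position held 68.4% (63.3 to 73.2) in the eye-antennal and 26.4% (20.9 to 32.4) in the wing disc, and both others were higher in the wing disc. The authors matched the latter pair to the same D. melanogaster position. Srrm234, a gene of the SR-related splicing factors, had 456 and 32 tags at 3L 1611998, 35 and 15 at 1607439, and 84 and 36 at 1607364. The most upstream of these, 4634 bases from the last, held 79.3% (75.8 to 82.5) in the eye-antennal and 38.6% (28.1 to 49.9) in the wing disc. In all of CG8850, Ndfip and Srrm234 each position lay on the same gene in both mappings.

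**Figure D3:**
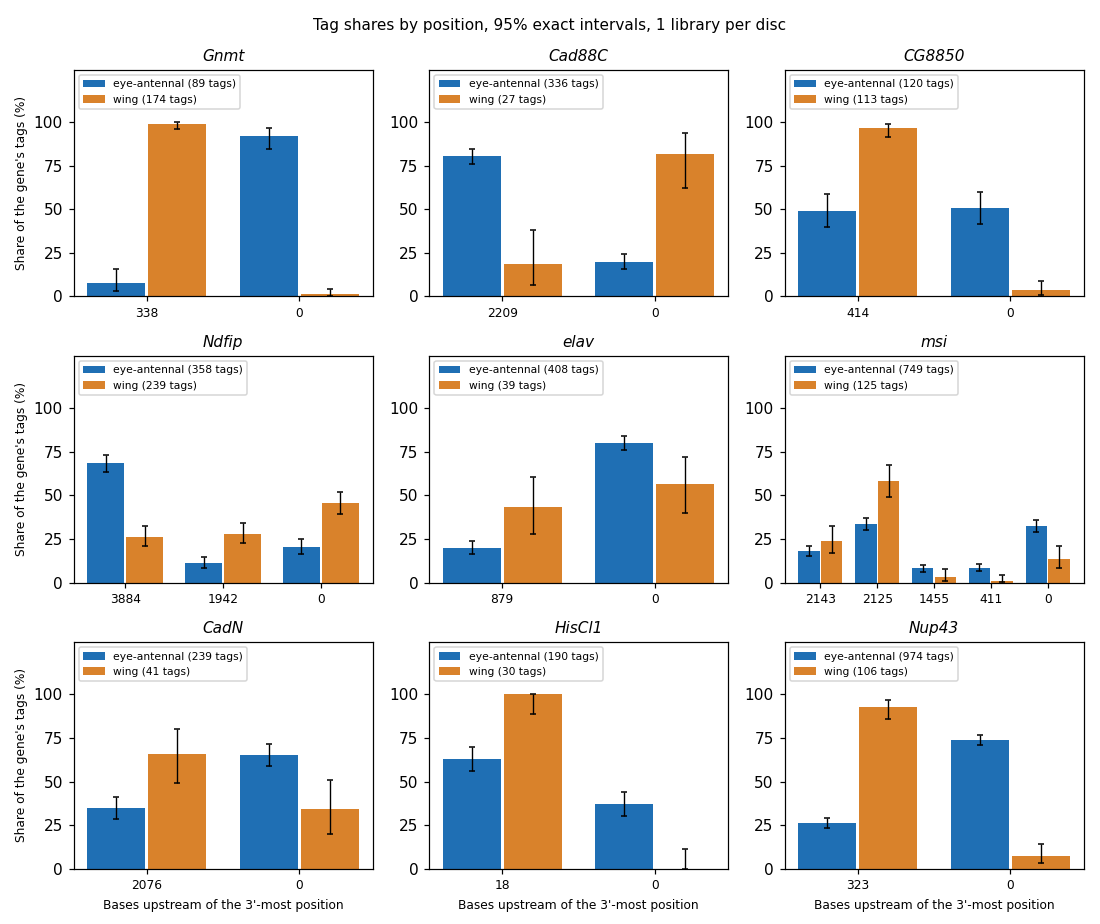
Share of the tags at a gene's member positions (vertical axis, %) in the eye-antennal (blue) and wing (orange) library for 9 called D. yakuba genes, with the positions in order of their distance in bases upstream of the 3′-most one (horizontal axis). Lines are exact 95% intervals, which cover counting error, and the legends give the tags behind each set of bars. In Gnmt the downstream bar is at 92.1% for the eye-antennal and 1.15% for the wing library, and in Cad88C the order is the opposite. In HisCl1 the 2 positions are 18 bases apart and count as 1 site.

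The assignment of a position to a gene differed between the authors' mappings for part of the called genes. The deposited gene mapping, used here, and a second, genome mapping of the same libraries share 4062 of the 4114 member positions (98.7%). Of the 62 called genes with a D. melanogaster identifier, 31 had all positions on the same gene in both mappings, 18 had at least 1 position on another gene in the genome mapping, and 13 had a position without a gene there and none on another. Among all members with an identifier, 348 (22.9%) had a position on another gene, and 18 of these were called (5.17%). Among the 904 whose positions all kept their gene, 31 were called (3.43%).

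Nup43, which encodes a nuclear pore protein, had the second largest shift and was one of the genes with a position on another gene. Its position at 3R 2805795 had 255 tags from the eye-antennal and 98 from the wing disc, and the position 323 bases downstream, at 2806118, had 719 and 8. The downstream share was 73.8% (70.9 to 76.6) against 7.55% (3.31 to 14.3). In the genome mapping the downstream position lay on gl, which encodes the zinc finger protein Glass of developing photoreceptors. At its other positions in that mapping gl had 99 tags from the eye-antennal and 5 from the wing disc, 17.5 and 2.27 CPM. The gl neighbour thus also had a higher CPM in the eye-antennal library. Among called genes with a single position on another gene, most neighbours differed between the libraries in the same direction as that position. Some of these differences were small, as in CkIIbeta beside Karl (60.8 and 62.7 CPM). The exception was CG17985, on which a position of the gene with the identifier FBgn0050492 lay. Elsewhere CG17985 had 16.2 and 20.4 CPM in the eye-antennal and wing libraries. The FBgn0050492 position itself had 29.6 and 4.54. Where several positions of a called gene lay on another gene, the directions were mixed or opposite. The part of neighbouring genes in these shares was not tested.

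SdhC, a membrane subunit of succinate dehydrogenase, had 529 and 208 tags at 3R 11067331 and 604 and 16 at 11066689, which is 642 bases downstream. The downstream share was 53.3% (50.4 to 56.2) in the eye-antennal and 7.14% (4.14 to 11.3) in the wing disc, and that position lay on cu in the genome mapping, which had 33 and 5 tags elsewhere. In CG5958, the position at 2L 5469368 had 170 and 60 tags, beside 53 and 134 at 5469007, and lay on the gene with the identifier FBgn0031912 in the genome mapping. In Obp28a, an odorant-binding protein, it was the upstream position, at 5398681 with 159 and 25 tags, that lay on another gene, while the downstream position, at 5399788, had 324 and 4 tags and kept its gene. CG14984 had 88 and 49 tags at 3L 4513659 and 100 and 3 at 4516499, the latter on CG12605. In these 4 genes the position assigned to a neighbour had the higher share in the eye-antennal disc except in Obp28a, where it had the higher share in the wing disc (86.2%, 68.3 to 96.1, against 32.9%, 28.7 to 37.3).

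Among the other genes with widely separated intervals, CG2444 had 115 and 209 tags at X 15086810, a share of 19.9% (16.7 to 23.4) in the eye-antennal and 55.0% (49.8 to 60.1) in the wing disc, and its other 3 positions lay on PhKgamma in the genome mapping. CG3999 had 19 and 75 tags at 3R 10120939 and 63 and 34 at 10121326, and the latter had no gene in the genome mapping. The gene FBgn0234340, which has no D. melanogaster identifier, had 40 and 19 tags at X 3915477 and 330 and 13 at 3916810. Its second position held 89.2% (85.6 to 92.2) in the eye-antennal and 40.6% (23.7 to 59.4) in the wing disc.

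The 3′-most site was examined over all genes whose direction could be inferred and whose positions lay at 2 or more sites, after positions within 25 bases had been summed. There were 1090 such genes. The 3′-most site had the most tags in 680 of them (62.4%), and its median share was 62.2% (eye-antennal) and 64.0% (wing). Its share was higher in the eye-antennal disc in 547 genes and higher in the wing disc in 543, and the median difference was 0.02 points, with quartiles of -2.98 and 2.998. By the call rule it was higher in the eye-antennal disc in 22 genes (2.02%) and in the wing disc in 21 (1.93%), together 3.94%. The counts for both discs were thus nearly equal. With only genes that kept their gene in both mappings, 654 in number, the 3′-most site led in 72.0%, and it was called higher in the eye-antennal disc in 10 and in the wing disc in 12.

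**Figure D4:**
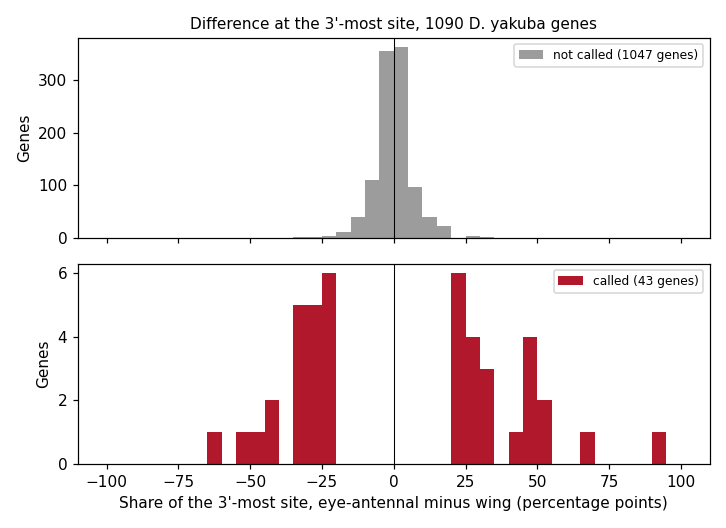
Number of D. yakuba genes (vertical axis) by the share of the 3′-most site in the eye-antennal minus the wing library (horizontal axis, percentage points), for the genes not called at that site (upper panel) and the 43 called (lower panel). Both panels are spread about evenly around 0, with 22 called genes to the right and 21 to the left.

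Lists of neuronal genes had a few members each, read here against the 3.96% called over all members. The list of ELAV family targets and genes with neural 3′ end extension had 6 members, of which 2 were called, elav and msi, and its median summed shift was 8.58 points beside 3.69 over all members. The 3 neuronal genes had a median of 13.9 points and 1 call, CadN. Of 6 photoreceptor and ommatidial genes, 1 was called, again elav, with a median of 5.06 points, and elav was the only member among the brain and neuroblast genes. Genes on these lists are few, and nothing particular to the lists can be read from the counts.

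The elav gene, which encodes the neuronal RNA-binding protein that promotes long 3′ ends, had 81 tags from the eye-antennal and 17 from the wing disc at the upstream position, X 335196, and 327 and 22 at the position 879 bases downstream, 334317. The downstream share was 80.1% (75.9 to 83.9) in the eye-antennal and 56.4% (39.6 to 72.2) in the wing disc. The elav total was 3.69 times higher in the eye-antennal library (2.79 to 4.94), and the downstream position had no gene in the genome mapping. In msi, which encodes an RNA-binding protein of the Musashi family, the 5 positions covered 2143 bases. The most downstream, at 3R 25048718, had 241 and 17 tags and a share of 32.2% (28.8 to 35.7) against 13.6% (8.13 to 20.9), while an upstream one, at 25050843, had 251 and 73 tags and a share of 33.5% (30.1 to 37) against 58.4% (49.2 to 67.1). The positions between them, at 25049129 and 25050173, had 62 and 61 tags in the eye-antennal and 1 and 4 in the wing library. In CadN, the gene of N-cadherin, the upstream position, at 2R 3447462, had 83 and 27 tags and the position 2076 bases downstream, at 3449538, had 156 and 14. The downstream share was 65.3% (58.9 to 71.3) in the eye-antennal and 34.1% (20.1 to 50.6) in the wing disc. The most downstream position had the higher share in the eye-antennal disc in elav, msi and CadN, but in msi its difference of 18.6 points did not reach the call. With a minimum of 20 counts per position the downstream elav difference was 17.8 points, and elav was called by another position at 21.2 points. With at least 50 tags of the gene asked of each library elav and CadN did not qualify, at 39 and 41 wing tags. With a minimum of 100 counts per position elav did not qualify either.

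Other members of these lists were not called. At their 3′-most site nSyb (-13.9 points), brat (-8.57), ru (-6.11) and Appl (-1.55) had the higher share in the wing disc, the opposite of elav. At the same site Egfr (2.61) and the retinal determination gene dac (5.33) had the higher share in the eye-antennal disc. The intervals overlapped at every position of these genes. Appl, the gene of the amyloid precursor-like protein, was 9.43 times higher in the eye-antennal library (7.39 to 12.2), yet its leading position held 90.1% (88.5 to 91.6) and 91.7% (81.6 to 97.2) of its tags, a summed shift of 2.58 points. The synaptic vesicle gene nSyb had 183 and 105 tags at its positions in the eye-antennal and 24 and 7 in the wing library, a shift of 13.9 points with overlapping intervals. The translational repressor brat shifted by 9.96 points over 6 positions. Among photoreceptor genes, Egfr shifted by 2.61 points, with its leading position on twz in the genome mapping, the transcription factor gene lz by 7.51 and ru, which encodes a Rhomboid protease, by 15.2, the last with 14 tags in the wing library. Among the retinal determination genes the only member was dac, with 3 positions over 15081 bases and a shift of 6.63 points.

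Zasp66, a PDZ domain protein of the muscle Z disc, was the called member of 2 sarcomere and muscle genes, and the other, Tm1, shifted by 12.5 points. Zasp66 had 276 and 15 tags at 3L 3280990 and 54 and 12 at 3280504, which is 486 bases downstream. The upstream share was 83.6% (79.2 to 87.5) in the eye-antennal and 55.6% (35.3 to 74.5) in the wing disc. Zasp66 did not qualify with a minimum of 100 counts per position. Nor did it with at least 50 tags of the gene asked of each library, at 27 wing tags. The total was 4.77 times higher in the eye-antennal library (3.24 to 7.28), while of the muscle markers Mlc2 stood at 64.5 and 23.2 CPM, up at 36.0 and 39.5 and Mhc at 0 in both libraries. Their part in the Zasp66 shares was not tested.

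Genes that serve every cell had small shifts. The 50 ribosomal protein genes had a median of 0.817 points, the 11 genes of translation and stress 0.759, the 6 chromatin genes 0.412 and the 12 cytoskeleton genes 2.74, and none was called. The smallest shift of all was in HmgD, a chromatin protein of the HMG box family, whose leading position held 99.5% in both libraries, with 22727 eye-antennal and 8657 wing tags. Among 13 splicing regulators the median was 2.06 points with no call, and examples were Hrb27C at 3.21, Hrb87F at 4.17 and Hrb98DE at 1.18. The machinery of cleavage and polyadenylation had 3 members, none called: Cpsf100 shifted by 3.55 points, CstF50, with its leading position on ttk in the genome mapping, by 4.69 and hrg, which encodes the poly(A) polymerase, by 0.611. Over all members 3.96% were called and the median shift was 3.69 points. Among all genes with at least 2000 tags these values were 0.289% and 1.25 points. The part of depth in these lists was not tested.

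The signalling and patterning lists are small, and the absence of calls in them is near the 3.96% over all members. The 8 Notch signalling members had a median of 4.95 points, with E(spl)m4-BFM at 1.03, E(spl)malpha-BFM at 0.923 and gro at 0.873. The E(spl)m4-BFM total was 4.01 times higher in the eye-antennal library (3.59 to 4.48), while its leading position held 98.5% (98 to 98.8) and 97.4% (95.2 to 98.8) of the tags. The 4 antennal and appendage genes had a median of 4.43 points, with hth at 2.23 and exd at 1.05, and the wing and notum list had 1 member, caup, at 8.99. The 5 ecdysone response genes had a median of 4.22 points, with ImpE2 at 0.138 and Blimp-1 at 4.22, and the 2 adhesion and matrix genes, Col4a1 and if, stood at 2.27 and 10.3. The called cadherin genes Cad88C and CadN are not among the members of that list.

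The fat body and ring gland members named here differed strongly in level. No member of the fat body, ring gland and hemocyte lists was called. With so few members this cannot be told apart from the 3.96% called over all members. The 6 fat body members had a median of 2.20 points: Fbp1, a storage protein receptor, had 8 positions, a shift of 2.13 points and an eye-antennal level 0.1 times the wing level (0.0969 to 0.103), and Lsp1gamma and Lsp2, larval storage proteins, shifted by 0.767 and 3.07 points at levels of 0.0919 and 0.0916 times. The 3 ring gland members, phtm, spok and jhamt, had 1582, 944 and 158 tags at member positions in the eye-antennal library and 3, 1 and 1 in the wing library. Their shifts of 7.33, 22.6 and 32.3 points were not detectable as differences at this depth. The 2 hemocyte members had a median of 4.89 points.

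Gene totals and position shares were set side by side. A total was counted as different when the bound of its 95% interval nearer 1 was at least 2-fold. This held in 80 of the 1615 genes (4.95%), 59 of them higher in the eye-antennal and 21 higher in the wing library. Of the 64 called genes, 15 were among these 80 (23.4%), 11 with the eye-antennal and 4 with the wing total higher. The remaining 49 called genes did not pass that bound. For example, the total of Gart, the trifunctional enzyme of purine synthesis, was 0.603 times the wing level (0.516 to 0.705). Its upstream position, at 2L 5896641, had 230 and 88 tags, and the one 3540 bases downstream, at 5900181, 157 and 166, so that the downstream share was 40.6% (35.6 to 45.6) in the eye-antennal and 65.4% (59.2 to 71.2) in the wing disc.

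The same rule was applied to each of the other species. It called 268 of 1053 D. melanogaster genes (25.5%) and 161 of 1422 D. virilis genes (11.3%), with median shifts of 10.6 and 7.32 points, so D. yakuba, at 3.96%, had the lowest share called. The median depth at the compared genes was 535 tags in D. melanogaster, 557.5 in D. virilis and 724 in D. yakuba, and its part in the shares called was not tested. Each value rests on 1 library per disc, so a difference between species and a difference between single libraries cannot be told apart.

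**Figure D5:**
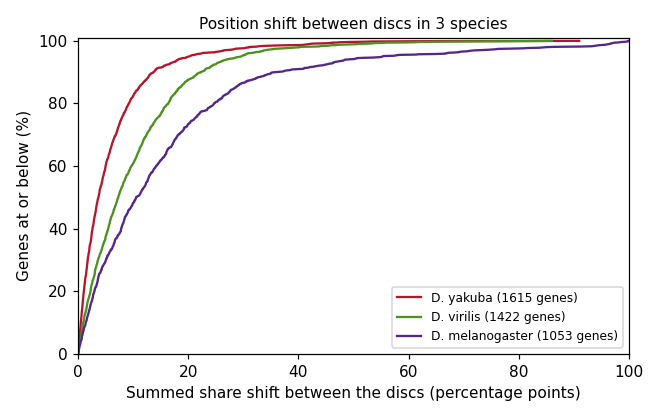
Percent of genes (vertical axis) at or below a summed share shift between the discs in percentage points (horizontal axis), 1 line per species. The D. yakuba line rises first, with a median of 3.69 points, followed by D. virilis at 7.32 and D. melanogaster at 10.6.

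Few genes were called in more than 1 species. Of 561 genes with several qualifying positions in both D. yakuba and D. melanogaster, 16 were called in D. yakuba (2.85%) and 124 in D. melanogaster (22.1%). The 6 called in both are 37.5% of the former and 4.84% of the latter. Of 577 such genes shared with D. virilis, 15 were called in D. yakuba (2.60%) and 62 in D. virilis (10.7%), and the 4 called in both are 26.7% and 6.45%. The gene FBgn0050492 was the one called in all 3 species, and its leading D. yakuba position in the eye-antennal disc lay on CG17985 in the genome mapping. It had 137 and 66 tags at 2L 16207954 and 168 and 10 at 16210806, a share of 55.1% (49.3 to 60.8) against 13.2% (6.49 to 22.9) for the second. One of its positions held 65.8% (54.3 to 76.1) against 42.3% (31.2 to 54) in D. melanogaster and 70.3% (61.2 to 78.4) against 49.5% (38.9 to 60) in D. virilis. Of 2 positions, 1 must have the higher eye-antennal share, and the direction of this gene was not known. Whether the same end shifted in each species was therefore not shown. GlcAT-I, a glucuronosyltransferase of proteoglycan synthesis, was called in D. yakuba and D. virilis. Its D. yakuba position at X 4401820 had 373 and 16 tags, a share of 32.3% (29.6 to 35) against 7.44% (4.31 to 11.8).

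Where the authors' matched position fell within 3 bases of a D. melanogaster tag position of the same gene, single sites could be compared between the species. This was so for 2184 of 3705 positions with a match, and 676 genes had at least 2 such sites. Both species were then read at 1 such site per gene, the one with the largest D. yakuba difference. At that site 19 genes were called in D. yakuba (2.81%) and 82 in D. melanogaster (12.1%). The minimum of 50 counts was asked of the D. yakuba positions only, and any D. melanogaster site with a tag was used. These shares called thus rest on unlike thresholds. The call in D. melanogaster was not asked at a gene's other matched sites. Of the 19, the site with the largest D. yakuba difference had the same direction in D. melanogaster in 13, and of all 676 in 361 (53.4%). The pair of positions in HisCl1, the gene of a histamine-gated chloride channel, and the positions of mon2, a gene of Golgi transport, were called in the same direction in both species. HisCl1 and mon2 were picked after their values were seen. With the minimum of 50 counts neither was among the D. melanogaster genes compared. In D. yakuba, HisCl1 had 120 and 30 tags at 3R 16802574 and 70 and 0 at 16802556, 18 bases away, so the second share was 36.8% (30 to 44.1) against 0% (0 to 11.6). At 18 bases the 2 HisCl1 positions count as 1 site, so these shares compare its sides rather than 2 sites. By the inferred gene direction the first, with all 30 wing tags, is the side that points away from the 3′ end. In D. melanogaster the first of these positions held 56.9% (44 to 69.2) and 89.3% (71.8 to 97.7). In D. yakuba, mon2 had 61 and 3 tags at 2L 10747121, a share of 59.8% (49.6 to 69.4) against 13.6% (2.91 to 34.9), and in D. melanogaster the matched site held 40.6% (28.5 to 53.6) against 5.56% (0.68 to 18.7).

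The neuronal genes were set beside the other species without a test of the difference. In D. melanogaster the 3′-most of the 2 elav positions had 139 of 195 tags in the eye-antennal and 8 of 22 in the wing library, 71.3% (64.4 to 77.5) against 36.4% (17.2 to 59.3), the same direction as in D. yakuba. The elav positions were not among the matched sites compared, so those of the 2 species are not shown to correspond. In D. virilis elav was not called. The msi gene was called in D. virilis, where 1 position held 45.6% (39 to 52.3) against 75.4% (70.2 to 80.1). CadN in D. melanogaster had 81 and 2 tags at 1 position and 199 and 18 at the other, a difference of 18.9 points that was not called. Zasp66, with 665 tags from the eye-antennal and 260 from the wing disc of D. melanogaster, differed by 2.07 points and was not called.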

How the data were processed

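Per the file headers, the authors deposited counts of tags per genomic position with the gene assigned to each, as whole numbers. NlaIII tag profiling was used per the labels' protocols. Bowtie 0.12.1 is named in the submitters' processing notes. Mismatches, the handling of tags with several matches and the coordinates' builds were not stated in the sources at hand. The files hold no strand column and gene identifiers were used as given. Symbols came from the reference gene name table and strands from the BDGP6.54 annotation (release 115).

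Positions with at least 50 counts over both D. yakuba libraries in genes with 2 or more such positions were kept, from the gene mapping. A position's share is its count over the gene's counts at kept positions. Exact 95% Clopper-Pearson intervals were computed with scipy 1.17.1 (Python 3.11.15), and no test was made with 1 library per group. A count of 0 is given with its interval. A gene was called at a difference of 20 points or more with intervals apart. Gene direction was inferred from the D. melanogaster gene strand where pairs of the gene's positions kept or reversed their order on the authors' matched D. melanogaster positions (mean sign over pairs at least 0.8 in size). Where D. yakuba positions matched the same D. melanogaster site, their counts were summed. Folds are of CPM over the library total, and TMM factors (1.02 and 0.980, edgeR 4.0.16 in R 4.3.3) were an alternative. The measures were tested on simulated data.

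The members and the 20 gene lists were chosen with earlier results of these data known. In the lists 20 symbols had no match. Genes were named by rule: up to 15 called genes with the widest gap between intervals, 8 with different leading positions, 6 with the most counts, 4 with the most positions, 6 called in several species, and in each list the called members and up to 3 with the most counts. The eye-antennal library is deeper, so a summed threshold admits positions with fewer wing tags. Alternatives changed the minimum, the difference, the intervals, the merging of positions and the mapping. One gene that the rule names is not reported here.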

Additional observations from a re-analysis of the deposited data

Results flagged for a closer look

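At matched sites Ndfip was called in D. yakuba and in D. melanogaster with opposite directions. The minimum count per position was asked of the D. yakuba positions only, so the D. melanogaster call rests on a looser rule. With that minimum Ndfip was not among the D. melanogaster genes compared. The D. yakuba positions at 3L 16415120 and 16417062, which the authors matched to the same D. melanogaster position, were summed, and their share was lower in the eye-antennal than in the wing disc by 42.1 points (31.6% against 73.6%, a difference of -42.1). In D. melanogaster that position had 43 of 122 tags in the eye-antennal and 0 of 84 in the wing library, 35.2% (26.8 to 44.4) against 0% (0 to 4.3), a difference of 35.2 points. The difference between the species was not tested, and each species has 1 library per disc.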

How the results depend on the processing

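No paired analysis was possible because each group has 1 library and the labels give no replicate numbers. The count of 64 called genes was 39 with a minimum of 100 counts per position, 134 with a difference of 10 points, 33 with 30 points, and 31 among the genes whose positions all kept their gene in both mappings. It lay between 48 and 90 under the other settings. With 20 counts it was 90, without the interval rule 80, and with at least 50 counts of the gene in each library 48. The settings of at least 10 CPM in 1 library (61), 99% intervals (53), sums of positions 18 bases apart (56) and the same gene in both mappings were chosen after seeing the data. With positions within 25 bases summed the count was 56, and 55 of the 64 genes were called again. In the genome mapping 37 of 62 called genes with an identifier still qualified, and 34 of these were called again. The 123 genes whose leading position differed became 220 with a minimum of 20 counts, 72 with 100 and 52 among genes that kept their gene in both mappings. Of the 64 called genes, 15 had different totals, and 16 had with TMM factors. CG12325 had its largest difference at 1 side of a pair, and its value reversed to -1.25 points when positions 18 bases apart were summed. Of 479 recomputed share differences of named and called genes 468 stayed within the counting interval, 10 moved and 1 reversed. The cause was not tested. The 468 include values that could not change. Asking at least 50 counts of the gene in each library only removed genes. Grouping by D. melanogaster gene left the recomputed values as they were. The interval is also wide. With shares taken among all positions of the gene, krz went from -22.0 to -11.3 points and still counted as within it. Genes that no longer qualified under a setting were not among the 479. Called genes had a median of 86 wing tags, so smaller differences are not detectable in many members.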
